A study of Mus musculus with 8 samples.

Results

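Gene expression of NIH 3T3 fibroblasts was compared between cells kept in Claycomb media taken from cardiomyocytes and cells kept in Claycomb media that no cells had used. The arrays were chosen by their titles: 3 arrays of media from cardiomyocytes that had not been ultracentrifuged and 3 arrays of unused cardiomyocyte media, together 6 of the 8 arrays of the series. All 25697 probes of the table of intensities before normalization were taken. NIH 3T3 is a mouse fibroblast line of embryonic origin, and HL-1, the source of the transferred media, is a contracting line derived from mouse atrium. Media stayed on the cardiomyocytes for 24 h and then on the fibroblasts for 24 h. As maintained, Claycomb media contained fetal bovine serum, norepinephrine, L-glutamine and antibiotics, and the methods describe a switch of plated cells to media free of serum and antibiotics for 24 h ahead of growth factors. Whether the transferred and unused media of these arrays held serum is not given. Neither group therefore shows fibroblasts in their own growth media, and the compared media can differ both in what cardiomyocytes released and in what they used up. The other 2 arrays were of fibroblasts in the supernatant of cardiomyocyte media after ultracentrifugation, and they entered the model so that the spread and the chip difference could be estimated.

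All unused media arrays were on chip 1. Of cardiomyocyte media, replicate 1 was on chip 1 and replicates 2 and 3 were on chip 2, and each chip held 1 of the 2 supernatant arrays. The 2 cardiomyocyte arrays on chip 2 can thus be compared with unused media only across chips, and log2 fold changes from a model with chip as a block, called chip-blocked, stand beside the results with the standard error (SE) of the model without it. In lists of 3 signals the order is replicate 1, 2 and 3, and a value with no other unit after a gene or probe is its log2 fold change without the block. Between 10545 and 11157 probes were detected on the arrays of unused media and between 10648 and 11576 on those of cardiomyocyte media. The median signal of probes near background was 84.2 to 86.0 on the chip 1 arrays of both groups and 44.8 to 44.9 on chip 2. The beads of a detected probe had a median standard error of 9.34% of the signal on unused media replicate 3 and of 4.46% to 5.19% on the other 5 arrays. Nothing says whether the wells behind the replicates came from separate experiments, so the p-values reflect the spread of these arrays and no more. In bulk RNA, fewer cells of a kind and less RNA per cell cannot be told apart.

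Fibroblasts make, crosslink and degrade the extracellular matrix, and they both release and answer growth factors and chemokines. Media that have been on other cells carry their secreted proteins, vesicles and metabolites and lack the nutrients those cells consumed. TGF-beta signals through SMAD proteins to contractile and matrix genes, NRF2 switches on genes of glutathione synthesis and detoxification, and ATF4 those of amino acid supply.

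Of 8882 genes tested, 358 passed as higher and 391 as lower in cardiomyocyte media (limma, adjusted p under 0.05). They were 4.03% and 4.4% of the genes, together 8.43%. The genes called higher had a median log2 fold change of 1.02, and 187 of them were at least 2-fold higher. Those called lower had a median of -0.92, and 162 were at least 2-fold lower. Among the called genes 50 were detected on no array of unused media and 48 on no array of cardiomyocyte media. These genes entered the test because arrays of other groups detected them, so their adjusted p is not separate support for the difference in detection. The dimmest detected signal was 18.2 to 21.4 on unused media. It was 20.8 on cardiomyocyte media replicate 1 (chip 1) and 16.6 and 16.8 on replicates 2 and 3 (chip 2). With chip as a block 228 genes were higher and 268 lower (2.57% and 3.02%, together 5.58%), and 199 and 216 of the 358 and 391 were among them. Within chip 1, where 1 cardiomyocyte array stands against 3 of unused media, the called genes had medians of 0.92 and -0.88, and for the chip 2 arrays against unused media the medians were 1.09 and -0.94. The arrays of the compared groups did not overlap in any called gene, against 28.6% of all genes tested, a description only, since the same arrays made the calls. Higher genes made up 47.8% of the calls. With arrays brought to 1 median instead of quantile normalized (median scaling), they made up 76.9%, 369 against 111 lower. That setting aligned the median of all probes, detected or not. It moved the median of all genes tested from -0.01 to 0.21, so list medians under median scaling are to be read against 0.21. Omitting cardiomyocyte media replicate 1 gave 1448 calls, omitting replicate 2 gave 375 and omitting replicate 3 gave 413. Omitting unused media replicate 1 gave 419, replicate 2 458 and replicate 3 467. Without cardiomyocyte media replicate 1 all cardiomyocyte arrays lie on chip 2 and all unused arrays on chip 1, so chip and media cannot be told apart there.

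**Figure D1:**
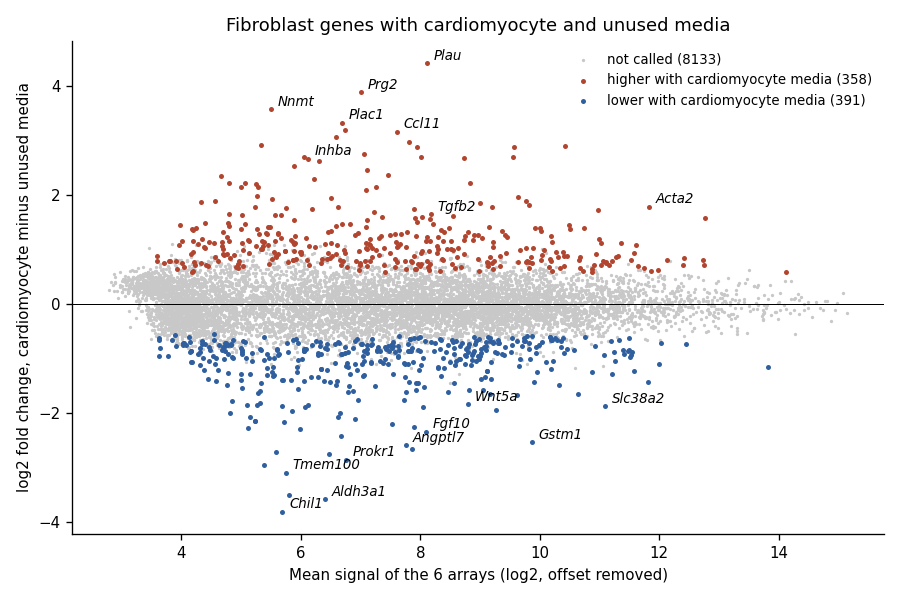
Each point is 1 of 8882 genes tested. The horizontal axis is the mean log2 signal of the 6 arrays and the vertical axis the log2 fold change of cardiomyocyte over unused media. The 358 red and 391 blue points are the called genes, with Prg2 at 3.88 near the top and Aldh3a1 at -3.58 near the bottom.

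Genes of the TGF-beta family changed at the level of the ligand, the inhibitor and the target. Tgfb2, which encodes the ligand TGF-beta 2, is at chr1:186622787-186709697 (GRCm38.p6). Its signal was 179, 156 and 141 with unused media (chip 1) and 563 (chip 1), 538 and 486 (chip 2) with cardiomyocyte media. Every array of cardiomyocyte media lay above every array of unused media, and Tgfb2 rose (log2 fold change 1.64, SE 0.18, adjusted p = 1.75e-04, chip-blocked 1.81). Inhba, which encodes a subunit of activin A, had a signal of 28.5, 19.9 and 18 (chip 1) with unused media against 258 (chip 1), 210.1 and 206 (chip 2) with cardiomyocyte media. It rose to about the same level on both chips (log2 fold change 2.66, SE 0.17, adjusted p = 7.38e-06, chip-blocked 2.79). Tgfb1, the ligand TGF-beta 1, had signals of 141, 135 and 99 with unused media (chip 1) and 201 (chip 1), 139 and 303 (chip 2) with cardiomyocyte media. Its chip 2 arrays differed from each other by more than the groups did, and it did not pass (log2 fold change 0.66, SE 0.27, adjusted p = 0.158). Of 5 tested ligands of TGF-beta and activin, 2 were called higher and 0 lower, with a median log2 fold change of 0.66 beside -0.01 over all genes.

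The signal of Smad6, an inhibitory SMAD that limits BMP signalling, was 53.3, 51.9 and 43.7 (chip 1) with unused media against 15.9 (chip 1), 8.99 and 12.3 (chip 2) with cardiomyocyte media. It was detected on no array of cardiomyocyte media and was at least 1.93-fold lower, adjusted p = 0.00243. Of 12 tested receptors and SMADs, 2 were higher, the type I receptor Tgfbr1 (0.71) and the type II receptor Tgfbr2 (0.72), and 1 was lower, Smad6. That was 25.0% called, against 8.43% over all genes. Among 14 tested targets of TGF-beta signalling 4 were higher and 2 lower (median 0.29, or 0.16 with chip as a block). Acta2, the smooth muscle actin that marks myofibroblasts, had signals of 1461, 2265 and 2277 with unused media (chip 1) and 7214 (chip 1), 7000.2 and 6180.5 (chip 2) with cardiomyocyte media. It rose (log2 fold change 1.78, SE 0.20, adjusted p = 2.51e-04, chip-blocked 1.88), and its other 3 probes had log2 fold changes of 1.92, 1.79 and 1.80. The list of actin, smooth muscle and myofibroblast contraction, which also holds Acta2, had 2 higher and 0 lower of 22 tested (median 0.17). That was 9.09% called, near the 8.43% over all genes, and 1 was higher with chip as a block. Skil encodes SnoN, a repressor of SMADs that TGF-beta induces, and its signal was 116, 120.5 and 144 (chip 1) with unused media against 309 (chip 1), 399 and 295 (chip 2) with cardiomyocyte media. Skil rose (log2 fold change 1.29, SE 0.18, adjusted p = 0.00103, chip-blocked 1.19). The other probe of Skil was at -0.15, so its probes disagree. Tnc, the matrix protein tenascin C, had signals of 691, 474 and 636 in unused media (chip 1) and 1667 (chip 1), 1204 and 1958 (chip 2) in cardiomyocyte media. Tnc rose (log2 fold change 1.39, SE 0.22, adjusted p = 0.00254, chip-blocked 1.40), with 0.31, -0.26, 1.51 and 1.14 at its other 4 probes, which disagree in sign. Id4, an inhibitor of DNA binding that BMP signals induce, had signals of 134, 82.7 and 89.9 with unused media (chip 1) and 34 (chip 1), 10.3 and 11.4 (chip 2) with cardiomyocyte media. Id4 fell (log2 fold change -1.81, SE 0.26, adjusted p = 0.0014, chip-blocked -1.53). Ccn2, connective tissue growth factor, had signals of 3799.6, 2609.7 and 3475 in unused media (chip 1) and 1846 (chip 1), 2270.2 and 2029 (chip 2) in cardiomyocyte media. Ccn2 fell (log2 fold change -0.67, SE 0.18, adjusted p = 0.0488, chip-blocked -0.76), the smallest change of the targets that passed. Tgfbr2 (adjusted p = 0.0936) and Ccn2 (adjusted p = 0.0726) did not pass with chip as a block, nor did Tgfbr1 (adjusted p up to 0.11) without unused media array 1 or 2 or cardiomyocyte media array 2 or 3, nor did Tgfbr2 (adjusted p up to 0.125) without unused media array 2 or 3 or cardiomyocyte media array 2 or 3 or supernatant array 1 or 2, nor did Ccn2 (adjusted p up to 0.153) without unused media array 1 or 3 or cardiomyocyte media array 1, 2 or 3 or supernatant array 1 or 2. Tgfbr1 was not called with the values normalized by the authors or averaged probes, Tgfbr2 was not called with the values normalized by the authors or a fit of the 6 compared arrays alone, Skil was not called with averaged probes, Id4 was not called with the values normalized by the authors, and Ccn2 was not called with cyclic loess, median scaling, the values normalized by the authors, no detection filter, each probe tested, a fit of the 6 compared arrays alone, chip as a random block or array weights.

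Hyaluronan is the matrix polysaccharide that the study followed in cell media. Of 30 listed genes with a probe that make, bind or cut it 10 were tested, and 2 were called. Has2, the synthase with the only tested probe of the 3 synthases, had signals of 436, 274 and 387 with unused media (chip 1) and 249 (chip 1), 377 and 300.0 (chip 2) with cardiomyocyte media. The groups overlapped (log2 fold change -0.23, SE 0.21, adjusted p = 0.536). The probes of Has1, Has3 and Hmmr, a hyaluronan receptor, were detected on none of the 6 arrays and were not tested. Cd44, the main receptor of hyaluronan, had signals of 282, 194 and 334 (chip 1) with unused media against 155 (chip 1), 208 and 224 (chip 2) with cardiomyocyte media (log2 fold change -0.42, SE 0.22, adjusted p = 0.266), with 0.19 and -0.96 at its other 2 probes. Of 10 tested genes of the list 0 were higher and 2 lower, with a median of -0.28 (-0.02 under median scaling, where 0 were lower). The 2 were the hyaluronidase Hyal1 (-0.97) and the cell surface hyaluronidase Cemip2 (-0.59). The other probes of Cemip2 were at -0.02 and -0.56, and neither passed. Hyal1 (adjusted p up to 0.0766) did not pass without unused media array 1 or 2 or cardiomyocyte media array 3, nor did Cemip2 (adjusted p up to 0.13) without unused media array 1, 2 or 3 or cardiomyocyte media array 1, 2 or 3 or supernatant array 1 or 2. Hyal1 was not called with median scaling or the values normalized by the authors, and Cemip2 was not called with median scaling, the values normalized by the authors, each probe tested, averaged probes or a fit of the 6 compared arrays alone.

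Ligands of receptor tyrosine kinases moved both ways. Of 26 tested, 3 were higher, 5 were lower and 18 did not pass, with a median of -0.44. Fgf10, a fibroblast growth factor that acts on epithelium, is at chr13:118714699-118792573 (GRCm38.p6). Its signal was 637, 531 and 809 with unused media (chip 1) and 98.6 (chip 1), 136 and 114 (chip 2) with cardiomyocyte media. It fell on both chips (log2 fold change -2.34, SE 0.20, adjusted p = 2.79e-05, chip-blocked -2.44), and its other probe was at -2.08. Vegfd and Vegfc are both ligands of the lymphatic receptor VEGFR-3, and they changed in opposite directions. Vegfd had signals of 1006, 916 and 898 (chip 1) with unused media against 417 (chip 1), 223 and 296 (chip 2) with cardiomyocyte media. Vegfd fell (log2 fold change -1.58, SE 0.23, adjusted p = 0.00156, chip-blocked -1.18). Vegfc had signals of 24.5, 26.1 and 21.9 in unused media (chip 1) and 165 (chip 1), 83.6 and 124 (chip 2) in cardiomyocyte media. Vegfc rose (log2 fold change 1.76, SE 0.22, adjusted p = 4.85e-04, chip-blocked 2.08). Angpt2, a ligand of the endothelial receptor TIE2, had signals of 124, 137 and 180.0 with unused media (chip 1) and 439.6 (chip 1), 610.3 and 392 (chip 2) with cardiomyocyte media. Angpt2 rose (log2 fold change 1.60, SE 0.21, adjusted p = 6.52e-04, chip-blocked 1.51). Vegfa, which drives the growth of blood vessels, had signals of 448, 384 and 541 (chip 1) with unused media against 1016 (chip 1), 1244 and 1009 (chip 2) with cardiomyocyte media. Vegfa rose (log2 fold change 1.23, SE 0.18, adjusted p = 0.00174, chip-blocked 1.13). Ligands that act on vessels thus held both rises and a fall. The remaining ligands that fell, chosen after their values were seen, were Gas6, the ligand of the TAM receptors (-1.58), Pdgfc (-1.30) and Hbegf, an EGF receptor ligand (-1.24). Mertk, one of the receptors of Gas6, rose from 189.6, 201 and 146 to 375 (chip 1), 371 and 590.1 (chip 2) (log2 fold change 1.22, SE 0.21, adjusted p = 0.00454, chip-blocked 1.09). Hbegf was not called with the values normalized by the authors.

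In the axis of insulin-like growth factors Igfbp5 and Igfbp4 were called, and in the WNT pathway a ligand and an antagonist moved in opposite directions. Igfbp5 encodes a binding protein of insulin-like growth factors, and its signal was 9.41, 12.4 and 9.80 with unused media (chip 1) and 109.9 (chip 1), 110.0 and 103 (chip 2) with cardiomyocyte media. It was detected on all 3 arrays of cardiomyocyte media and on none of unused media (at least 3.44-fold higher, adjusted p = 8.02e-06). Igf1 had signals of 143, 129 and 144 (chip 1) with unused media against 160.2 (chip 1), 115 and 109 (chip 2) with cardiomyocyte media (log2 fold change -0.12, SE 0.18, adjusted p = 0.716). Igf2, which was among the brightest probes, had signals of 25403, 24349 and 16968 in unused media (chip 1) and 22442 (chip 1), 22824 and 20680.0 (chip 2) in cardiomyocyte media (log2 fold change 0.00, SE 0.19, adjusted p = 0.99). Neither ligand passed, and 2 of 13 tested genes of the axis were higher (15.4%, against 8.43% over all genes), the other being Igfbp4 (1.15). Wnt5a, a WNT ligand that signals without beta-catenin, had signals of 787, 870.2 and 939 with unused media (chip 1) and 321 (chip 1), 166 and 227 (chip 2) with cardiomyocyte media. It fell (log2 fold change -1.83, SE 0.26, adjusted p = 0.00108, chip-blocked -1.36), with -1.66 at its other probe. Sfrp1, which binds WNT ligands outside the cell, had signals of 154, 110.4 and 112 (chip 1) with unused media against 324 (chip 1), 501 and 570.5 (chip 2) with cardiomyocyte media. Sfrp1 rose (log2 fold change 1.74, SE 0.23, adjusted p = 8.53e-04, chip-blocked 1.36). These were the only calls among 17 tested genes of the WNT pathway (11.8%, against 8.43% over all genes). Igfbp4 (adjusted p = 0.0508) did not pass with chip as a block.

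Cues that guide axons and vessels also moved both ways, 4 higher and 5 lower of 29 tested (median -0.08, 2 lower under median scaling). Sema7a, a membrane-bound semaphorin, had signals of 75.1, 59 and 88.8 with unused media (chip 1) and 549.9 (chip 1), 745 and 779.5 (chip 2) with cardiomyocyte media. Sema7a rose (log2 fold change 2.97, SE 0.20, adjusted p = 7.38e-06, chip-blocked 2.72). Sema5a, a semaphorin with thrombospondin repeats, had signals of 439.6, 350.4 and 578 (chip 1) with unused media against 1663 (chip 1), 1784 and 1628 (chip 2) with cardiomyocyte media. Sema5a rose (log2 fold change 1.88, SE 0.19, adjusted p = 1.39e-04, chip-blocked 1.84), with 1.99 at its other probe. Efnb2, an ephrin ligand, rose by less, from 17.4, 24.2 and 35.1 to 64.5 (chip 1), 83.5 and 63.1 (chip 2) (log2 fold change 1.07, SE 0.19, adjusted p = 0.00587, chip-blocked 1.03). Unc5b, a netrin receptor, fell from 131, 93 and 86.1 to 35.5 (chip 1), 47 and 29.4 (chip 2) (log2 fold change -1.16, SE 0.20, adjusted p = 0.00408, chip-blocked -1.14). Efnb1, an ephrin chosen after its value was seen, was at -1.30. Notch4, a receptor of the Notch family, had signals of 305, 265 and 254 in unused media (chip 1) and 32.8 (chip 1), 39.8 and 43 (chip 2) in cardiomyocyte media. The 3 arrays of cardiomyocyte media lay within a narrow range far below unused media (log2 fold change -2.41, SE 0.16, adjusted p = 7.38e-06, chip-blocked -2.53). Efnb1 was not called with the values normalized by the authors.

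**Figure D2:**
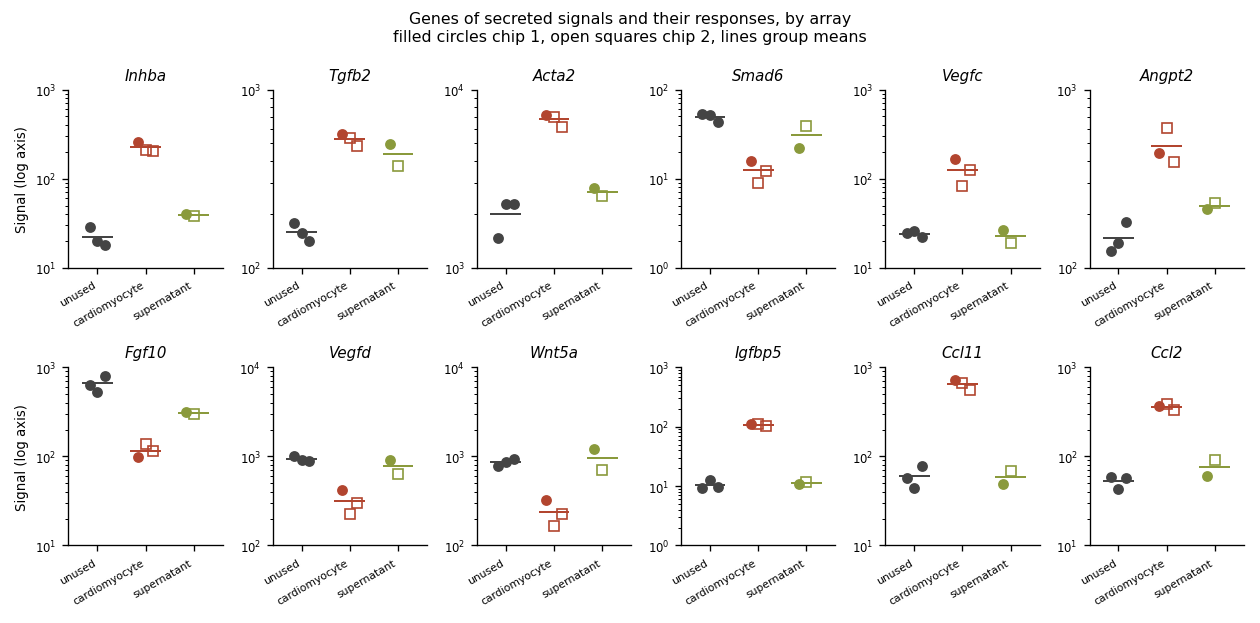
Signal (log axis, offset subtracted) of 12 genes on each of the 8 arrays, filled circles for chip 1 and open squares for chip 2, with a line at each group mean. Inhba, Igfbp5 and Ccl11 lie well above unused media on both chips, and Fgf10 and Wnt5a below it.

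Chemokines were the list with the largest share of called genes of those described. Of 12 tested, 7 were higher, 1 was lower and 4 did not pass (median 0.75, 0.62 with undetected genes at their bound, or 0.61 with chip as a block, where 5 were higher and 2 lower). Ccl11, eotaxin, attracts eosinophils and is at chr11:82057832-82062955 (GRCm38.p6). Its signal was 56.5, 44.5 and 78.9 with unused media (chip 1) and 724 (chip 1), 674 and 559.8 (chip 2) with cardiomyocyte media. Ccl11 rose (log2 fold change 3.15, SE 0.21, adjusted p = 7.38e-06, chip-blocked 3.13), and its other probe was at 2.302. Ccl2, which attracts monocytes, had signals of 59.3, 43 and 57.1 (chip 1) with unused media against 363 (chip 1), 382 and 333 (chip 2) with cardiomyocyte media. Ccl2 rose (log2 fold change 2.45, SE 0.19, adjusted p = 1.87e-05, chip-blocked 2.32). Ccl9 had signals of 19.2, 28.7 and 31.8 in unused media (chip 1) and 204 (chip 1), 272 and 258 (chip 2) in cardiomyocyte media. Ccl9 rose (log2 fold change 2.62, SE 0.18, adjusted p = 9.88e-06, chip-blocked 2.45). The signals of these 3 chemokines differed little between the chips with cardiomyocyte media. Ccl8, another attractant of monocytes, had signals of 129, 48.8 and 135 with unused media (chip 1) and 461 (chip 1), 979 and 796 (chip 2) with cardiomyocyte media. Ccl8 rose (log2 fold change 2.69, SE 0.35, adjusted p = 6.54e-04, chip-blocked 2.22), and its chip 2 arrays stood above its chip 1 array. The other called chemokines were Ccl7 (1.12), Ccl17 (-0.88), Ccl5 (at least 1.19-fold higher) and Cxcl12 (0.70), of which those outside the rule for names were chosen after their values were seen. Ccl5 (adjusted p = 0.0871) and Cxcl12 (adjusted p = 0.172) did not pass with chip as a block, nor did Ccl5 (adjusted p up to 0.083) without unused media array 1 or 3 or cardiomyocyte media array 2 or 3, nor did Cxcl12 (adjusted p up to 0.148) without unused media array 1, 2 or 3 or cardiomyocyte media array 2 or 3 or supernatant array 1 or 2. Ccl17 was not called with median scaling, Ccl5 was not called with an offset of 50, median scaling or the values normalized by the authors, and Cxcl12 was not called with the values normalized by the authors, each probe tested, a fit of the 6 compared arrays alone or chip as a random block.

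Of 30 tested interleukins, their receptors and NF-kappaB feedback genes 5 were higher and 3 lower, with a median of -0.14. Under median scaling it was 0.07, against 0.21 over all genes there. Il33, an alarmin stored in the nucleus, had signals of 11.4, 10.3 and 24.5 with unused media (chip 1) and 69.4 (chip 1), 159.6 and 105 (chip 2) with cardiomyocyte media. Il33 rose (log2 fold change 1.98, SE 0.27, adjusted p = 8.53e-04, chip-blocked 1.61). Nfkbia, the inhibitor that NF-kappaB itself induces, had signals of 211, 235 and 187 (chip 1) with unused media against 619.8 (chip 1), 434 and 609 (chip 2) with cardiomyocyte media. Nfkbia rose (log2 fold change 1.32, SE 0.19, adjusted p = 0.00127, chip-blocked 1.46). Tlr2, a receptor of bacterial lipoproteins, had signals of 481, 433 and 383 in unused media (chip 1) and 151 (chip 1), 112 and 184 (chip 2) in cardiomyocyte media. Tlr2 fell (log2 fold change -1.46, SE 0.20, adjusted p = 8.49e-04, chip-blocked -1.46). Il18 fell from 201, 247 and 324 to 126 (chip 1), 99.4 and 106 (chip 2) (log2 fold change -1.09, SE 0.20, adjusted p = 0.00579, chip-blocked -0.94). Ptx3, a soluble pattern recognition protein, had signals of 733, 440.1 and 753 with unused media (chip 1) and 97.5 (chip 1), 88.9 and 72.7 (chip 2) with cardiomyocyte media. Ptx3 fell (log2 fold change -2.65, SE 0.23, adjusted p = 4.23e-05, chip-blocked -2.69), with -2.89 at its other probe. Il33 was not called with the values normalized by the authors, and Il18 was not called with median scaling.

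Collagen chains were called in 1 direction. Of 22 tested 6 were higher and 0 lower, with a median of 0.67 (0.50 with chip as a block, where 5 were higher). Col28a1, a collagen of peripheral nerve and skin, had signals of 45.7, 39.8 and 22.6 with unused media (chip 1) and 165 (chip 1), 138 and 160.5 (chip 2) with cardiomyocyte media. Col28a1 rose (log2 fold change 1.74, SE 0.20, adjusted p = 2.75e-04, chip-blocked 1.77). Col3a1, a chain of the fibrils of soft tissue, had signals of 1445, 1418 and 1189 (chip 1) with unused media against 2962 (chip 1), 3148 and 3159 (chip 2) with cardiomyocyte media. Col3a1 rose (log2 fold change 1.19, SE 0.16, adjusted p = 9.50e-04, chip-blocked 1.21), with 0.92 at its other probe. Of 14 tested genes of the basement membrane 4 were higher, 2 with chip as a block (median 0.60, then 0.39), and Lama2, a laminin chain, was the strongest, from 32.6, 27 and 15.5 to 74.6 (chip 1), 134 and 127 (chip 2) (log2 fold change 1.63, SE 0.26, adjusted p = 0.0026, chip-blocked 1.19). Of 17 tested enzymes that modify collagen 1 was higher and 1 lower (11.8% called, against 8.43% over all genes). Plod2, which hydroxylates lysines of collagen for crosslinks, had signals of 94.7, 56.6 and 88.7 in unused media (chip 1) and 299.8 (chip 1), 249 and 319 (chip 2) in cardiomyocyte media. Plod2 rose (log2 fold change 1.69, SE 0.20, adjusted p = 3.83e-04, chip-blocked 1.65). Lox, which oxidizes those lysines outside the cell, had signals of 6849, 5777 and 5381 with unused media (chip 1) and 2558 (chip 1), 2906 and 2843 (chip 2) with cardiomyocyte media. Lox fell (log2 fold change -1.11, SE 0.20, adjusted p = 0.00518, chip-blocked -1.34). No other of the 17 tested modifying enzymes passed. Col3a1 was not called with averaged probes, and Lox was not called with median scaling.

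Proteoglycans and elastic fibre proteins held 6 higher and 4 lower genes of 18 tested, with 2 lower with chip as a block and 1 under median scaling. Fbln1, which encodes fibulin 1 of elastic fibres, had signals of 43.3, 28.8 and 19 with unused media (chip 1) and 321 (chip 1), 430.3 and 456 (chip 2) with cardiomyocyte media. Fbln1 rose (log2 fold change 3.19, SE 0.25, adjusted p = 2.18e-05, chip-blocked 2.81). Its other probe was at 0.75. Prelp, a leucine-rich proteoglycan, had signals of 297, 234 and 287 (chip 1) with unused media against 1717 (chip 1), 2495 and 2169.8 (chip 2) with cardiomyocyte media. Prelp rose (log2 fold change 2.88, SE 0.19, adjusted p = 7.38e-06, chip-blocked 2.65). Mfap5, a microfibril protein, had signals of 154, 149 and 184 in unused media (chip 1) and 985 (chip 1), 1243 and 1157 (chip 2) in cardiomyocyte media. Mfap5 rose (log2 fold change 2.68, SE 0.17, adjusted p = 7.38e-06, chip-blocked 2.51). Mfap4, a microfibril-associated protein, had signals of 7.53, 14.9 and 9.51 with unused media (chip 1) and 103 (chip 1), 104 and 96.5 (chip 2) with cardiomyocyte media. Mfap4 was at least 3.26-fold higher, adjusted p = 1.94e-05. Lum, lumican, was the brightest of these genes, with signals of 3336, 3719.8 and 5311 (chip 1) with unused media against 12847 (chip 1), 11003 and 12251 (chip 2) with cardiomyocyte media. Lum rose (log2 fold change 1.57, SE 0.20, adjusted p = 5.43e-04, chip-blocked 1.66). The genes that fell were of another kind, 3 of the 4 (the other being Ogn, -0.86) being latent TGF-beta binding proteins, which hold TGF-beta in the matrix. They were chosen after their values were seen. Ltbp1 had signals of 280.5, 189 and 161 in unused media (chip 1) and 48.6 (chip 1), 76.1 and 61.8 (chip 2) in cardiomyocyte media. Ltbp1 fell (log2 fold change -1.51, SE 0.22, adjusted p = 0.00166, chip-blocked -1.73). The other probes of Ltbp1 were at -0.23 and 0.35. Ltbp3 and Ltbp4 were at -0.93 and -0.84. Ogn (adjusted p = 0.159) and Ltbp3 (adjusted p = 0.0936) did not pass with chip as a block, nor did Ogn (adjusted p up to 0.106) without unused media array 1, 2 or 3 or cardiomyocyte media array 2 or 3, nor did Ltbp3 (adjusted p up to 0.0813) without unused media array 1 or 2 or cardiomyocyte media array 2, nor did Ltbp4 (adjusted p up to 0.0604) without unused media array 1 or 3. Ogn was not called with median scaling, the values normalized by the authors, averaged probes or chip as a random block, Ltbp1 was not called with averaged probes, Ltbp3 was not called with median scaling, the values normalized by the authors or averaged probes, and Ltbp4 was not called with median scaling or the values normalized by the authors.

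Metalloproteases and their inhibitors held 5 higher and 2 lower genes of 26 tested (median 0.39, or 0.14 with chip as a block, where 3 were higher). From the list of plasminogen activation, Plau, urokinase, had signals of 10.5, 87.4 and 130.0 with unused media (chip 1) and 1357 (chip 1), 1611 and 1719 (chip 2) with cardiomyocyte media. Its arrays of unused media varied widely, replicate 1 being at 10.5, while those of cardiomyocyte media lay within 1357 to 1719 (log2 fold change 4.41, SE 0.48, adjusted p = 2.07e-04, chip-blocked 4.20). Without unused media replicate 1 its log2 fold change was 3.68. Adamts4, which cleaves aggrecan, had signals of 42.9, 43.8 and 48.7 (chip 1) with unused media against 276 (chip 1), 495 and 437 (chip 2) with cardiomyocyte media. Adamts4 rose (log2 fold change 2.74, SE 0.22, adjusted p = 2.18e-05, chip-blocked 2.38). Adam19, a sheddase, had signals of 328, 331 and 359 in unused media (chip 1) and 858 (chip 1), 859 and 703 (chip 2) in cardiomyocyte media. Adam19 rose (log2 fold change 1.21, SE 0.16, adjusted p = 8.28e-04, chip-blocked 1.25). Timp3, an inhibitor of metalloproteases that stays in the matrix, had signals of 5256, 4205 and 4682 with unused media (chip 1) and 2332 (chip 1), 2040.1 and 1678 (chip 2) with cardiomyocyte media. Timp3 fell (log2 fold change -1.23, SE 0.20, adjusted p = 0.00291, chip-blocked -0.96), with -0.84 at its other probe. Serpina3n, an inhibitor of serine proteases, fell from 1081, 773 and 1019.6 to 314 (chip 1), 406 and 350.1 (chip 2) (log2 fold change -1.38, SE 0.18, adjusted p = 8.28e-04, chip-blocked -1.48). Ctsk, cathepsin K, a collagenase of the lysosome, rose from 588, 628 and 682 to 1781 (chip 1), 1857 and 1411 (chip 2) (log2 fold change 1.38, SE 0.17, adjusted p = 4.70e-04, chip-blocked 1.41). Itgbl1, a secreted protein with repeats of the integrin beta chain, had signals of 85.4, 61.9 and 111 (chip 1) with unused media against 624 (chip 1), 829 and 719 (chip 2) with cardiomyocyte media. Itgbl1 rose (log2 fold change 2.88, SE 0.21, adjusted p = 1.33e-05, chip-blocked 2.84). Itga9, an integrin chain, was detected on no array of cardiomyocyte media (at least 2.1-fold lower, adjusted p = 0.00147). Plau was not called with the values normalized by the authors.

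Glutathione transferases and antioxidant enzymes were called only in the lower direction, while enzymes of xenobiotic metabolism were called both ways. Of 19 tested glutathione transferases 7 were lower and 0 higher (median -0.55), and 3 were lower under median scaling (median -0.28). Of 40 tested antioxidant enzymes 10 were lower and 0 higher (median -0.27, and 0.01 under median scaling, against 0.21 over all genes there). Of 23 tested cytochromes P450, aldehyde dehydrogenases and related enzymes 5 were lower and 2 higher (median -0.03), against 1 and 0 under median scaling (median 0.24). The higher genes were Aldh3a2 (0.63, chosen after its value was seen) and Aldh1a1, which was detected on no array of unused media (at least 1.17-fold higher, adjusted p = 0.0498). Of the lower ones, Aldh3a1, an aldehyde dehydrogenase, had signals of 481, 381 and 339 with unused media (chip 1) and 12.1 (chip 1), 26.5 and 18.5 (chip 2) with cardiomyocyte media. Aldh3a1 fell (log2 fold change -3.58, SE 0.21, adjusted p = 7.38e-06, chip-blocked -3.88). Gstm1 had signals of 2046, 2492 and 2354 (chip 1) with unused media against 454 (chip 1), 403 and 304 (chip 2) with cardiomyocyte media. Gstm1 fell (log2 fold change -2.54, SE 0.21, adjusted p = 2.65e-05, chip-blocked -2.25). Its other probe was at 0.28. Transferases of the mu class are near-identical in sequence, so the values of Gstm1 and Gstm5 are uncertain. So is that of Gstm6 (-0.75, chosen after its value was seen), and the falls of these genes among the 7 may not be separate. Gstm5 had signals of 1241, 1549 and 1863 in unused media (chip 1) and 679 (chip 1), 725 and 526 (chip 2) in cardiomyocyte media. Gstm5 fell (log2 fold change -1.24, SE 0.20, adjusted p = 0.00314, chip-blocked -1.27). Gsta3, of the alpha class, had signals of 91.8, 116 and 254 with unused media (chip 1) and 23.6 (chip 1), 20.7 and 28.9 (chip 2) with cardiomyocyte media. Gsta3 fell (log2 fold change -1.96, SE 0.31, adjusted p = 0.00282, chip-blocked -2.18), and unused media replicate 3 was above its other 2 replicates. Osgin1, an NRF2 target that restrains growth, had signals of 161, 145 and 158 (chip 1) with unused media against 26.5 (chip 1), 26.2 and 43 (chip 2) with cardiomyocyte media. Osgin1 fell (log2 fold change -1.85, SE 0.18, adjusted p = 9.30e-05, chip-blocked -1.90). Nqo1, a quinone reductase, had signals of 242, 542 and 528 with unused media (chip 1) and 99.4 (chip 1), 122 and 109 (chip 2) with cardiomyocyte media. Nqo1 fell (log2 fold change -1.77, SE 0.28, adjusted p = 0.0029, chip-blocked -1.98). Hmox1, which breaks down heme, fell from 73.9, 118 and 78.8 to 10.9 (chip 1), 19.3 and 27.7 (chip 2) (log2 fold change -1.60, SE 0.23, adjusted p = 0.00131, chip-blocked -1.72). Ephx1, an epoxide hydrolase, fell from 1229, 1339.5 and 1741 to 464 (chip 1), 405 and 435 (chip 2) (log2 fold change -1.67, SE 0.18, adjusted p = 1.61e-04, chip-blocked -1.63). Aldh2 and Aldh1l2, dehydrogenases of mitochondria, fell by less (-1.05 and -0.96). Aldh3a2 (adjusted p = 0.0873) did not pass with chip as a block, nor did Aldh3a2 (adjusted p up to 0.147) and Aldh1a1 (adjusted p up to 0.136) without unused media array 1, 2 or 3 or cardiomyocyte media array 1, 2 or 3 or supernatant array 1 or 2. Aldh3a2 was not called with median scaling, the values normalized by the authors, each probe tested, a fit of the 6 compared arrays alone or chip as a random block, Aldh1a1 was not called with no background correction, an offset of 50, median scaling, the values normalized by the authors, no detection filter, each probe tested, a fit of the 6 compared arrays alone or trend and robust settings, Aldh2 was not called with median scaling or the values normalized by the authors, and Aldh1l2 was not called with median scaling.

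NRF2 binds the antioxidant response element, whose core was searched as TGACNNNGC on both strands. Promoter windows of RefSeq on GRCm38.p6, each 250 bases before to 50 after a start site, were found for 53 of 59 tested genes of these lists, and 11 of the 53 held the core. Among the genes called lower 5 of 15 with a window held it, against 12.4% of all 32851 RefSeq windows and 17.0% of tested genes with at least 1 window. The windows of 3 genes called lower are shown as examples, with the core in capitals. Gclm encodes the modifier subunit of the enzyme that starts glutathione synthesis, and Txnrd1 encodes thioredoxin reductase 1.
Gsta3 promoter (chr1:21240335-21240634, plus strand): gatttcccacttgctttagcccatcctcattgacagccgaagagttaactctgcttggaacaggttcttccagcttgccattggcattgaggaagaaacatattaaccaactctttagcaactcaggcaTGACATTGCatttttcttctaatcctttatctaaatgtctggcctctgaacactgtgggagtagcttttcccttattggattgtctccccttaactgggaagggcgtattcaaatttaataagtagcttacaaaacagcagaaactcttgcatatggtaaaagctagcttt
Gclm promoter (chr3:122245307-122245606, plus strand): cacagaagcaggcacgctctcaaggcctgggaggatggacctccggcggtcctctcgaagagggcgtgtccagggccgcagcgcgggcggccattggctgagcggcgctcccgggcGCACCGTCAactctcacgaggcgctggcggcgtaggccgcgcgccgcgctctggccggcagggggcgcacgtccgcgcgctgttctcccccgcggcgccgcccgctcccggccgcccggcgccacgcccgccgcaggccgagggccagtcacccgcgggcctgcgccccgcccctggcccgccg
Txnrd1 promoter (chr10:82858956-82859255, plus strand): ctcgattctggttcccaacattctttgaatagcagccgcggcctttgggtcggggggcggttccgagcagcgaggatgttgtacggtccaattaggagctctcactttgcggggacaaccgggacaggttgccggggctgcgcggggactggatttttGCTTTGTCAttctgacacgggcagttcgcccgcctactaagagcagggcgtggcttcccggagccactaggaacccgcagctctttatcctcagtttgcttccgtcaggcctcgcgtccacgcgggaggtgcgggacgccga

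Gclm, chosen after its value was seen, had signals of 658, 861 and 877 with unused media (chip 1) and 400.3 (chip 1), 199 and 204 (chip 2) with cardiomyocyte media. Its chip 2 arrays lay well below its chip 1 array (log2 fold change -1.58, SE 0.31, adjusted p = 0.00919, chip-blocked -0.93). Txnrd1, also chosen after its value was seen, had signals of 71.8, 62.8 and 67.3 (chip 1) with unused media against 36.7 (chip 1), 23 and 25.4 (chip 2) with cardiomyocyte media. Txnrd1 fell (log2 fold change -0.92, SE 0.17, adjusted p = 0.00732, chip-blocked -0.73). The matches are a description of letters in these windows. Gclm (adjusted p up to 0.0517) did not pass without cardiomyocyte media array 2. Gclm was not called with the values normalized by the authors, and Txnrd1 was not called with median scaling.

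Of 26 tested transporters and enzymes in the list of amino acid supply 9 were lower and none higher (median -0.28), and 6 were lower with chip as a block. Under median scaling 5 were lower (median -0.12, against 0.21 over all genes there). Slc1a3, a transporter of glutamate, had signals of 1251, 1147 and 1292 with unused media (chip 1) and 298 (chip 1), 330.5 and 296 (chip 2) with cardiomyocyte media. Its groups were tight and far apart (log2 fold change -1.94, SE 0.16, adjusted p = 2.79e-05, chip-blocked -2.04). Slc38a2, which imports neutral amino acids and is induced when they are scarce, had signals of 5106, 3834 and 3807 (chip 1) with unused media against 1197 (chip 1), 935 and 1313 (chip 2) with cardiomyocyte media. Slc38a2 fell (log2 fold change -1.87, SE 0.19, adjusted p = 1.39e-04, chip-blocked -1.78), with -0.48 at its other probe. Slc6a6, the taurine transporter, had signals of 6017, 5623 and 6213 in unused media (chip 1) and 2265 (chip 1), 2033 and 2266 (chip 2) in cardiomyocyte media. Slc6a6 fell (log2 fold change -1.44, SE 0.16, adjusted p = 2.07e-04, chip-blocked -1.36). Slc1a4, a transporter of alanine and serine, had signals of 504, 501 and 571 with unused media (chip 1) and 205 (chip 1), 188 and 212 (chip 2) with cardiomyocyte media. Slc1a4 fell (log2 fold change -1.31, SE 0.16, adjusted p = 4.16e-04, chip-blocked -1.24). Slc7a11, the cystine transporter, and Asns, asparagine synthetase, were chosen after their values were seen. Slc7a11 was detected on no array of cardiomyocyte media and had 35.6, 25 and 70.6 (chip 1) with unused media against 13.8 (chip 1), 7.36 and 9.39 (chip 2) with cardiomyocyte media (at least 1.67-fold lower, adjusted p = 0.022). Asns had signals of 1665, 1405 and 1978 in unused media (chip 1) and 1045 (chip 1), 1049 and 999 (chip 2) in cardiomyocyte media. Asns fell (log2 fold change -0.69, SE 0.17, adjusted p = 0.0358, chip-blocked -0.73). Slc7a11 (adjusted p = 0.0693) and Asns (adjusted p = 0.0688) did not pass with chip as a block, nor did Slc7a11 (adjusted p up to 0.0929) without unused media array 1 or 3 or cardiomyocyte media array 2 or 3, nor did Asns (adjusted p up to 0.107) without unused media array 1 or 3 or cardiomyocyte media array 2 or 3 or supernatant array 1 or 2. Slc7a11 was not called with the values normalized by the authors or no detection filter, and Asns was not called with median scaling, the values normalized by the authors or a fit of the 6 compared arrays alone.

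ATF4 with a C/EBP partner binds the composite sequence TGATGNAA. Of the 20 tested genes of amino acid supply with a promoter window 5 held it on either strand, among them 3 of 7 called lower (Slc1a4, Slc7a11 and Asns). It stood in 3.97% of all windows and in the windows of 2.94% of tested genes. The windows of Slc7a11 and Asns are shown because their transcripts are known to answer amino acid shortage, with the sequence in capitals.
Slc7a11 promoter (chr3:50443564-50443863, minus strand): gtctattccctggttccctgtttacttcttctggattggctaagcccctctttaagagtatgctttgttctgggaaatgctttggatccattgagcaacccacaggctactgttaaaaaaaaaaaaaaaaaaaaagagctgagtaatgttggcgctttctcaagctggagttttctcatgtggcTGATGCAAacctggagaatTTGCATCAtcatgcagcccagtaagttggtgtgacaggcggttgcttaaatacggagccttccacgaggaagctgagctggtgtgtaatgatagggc
Asns promoter (chr6:7693160-7693459, minus strand): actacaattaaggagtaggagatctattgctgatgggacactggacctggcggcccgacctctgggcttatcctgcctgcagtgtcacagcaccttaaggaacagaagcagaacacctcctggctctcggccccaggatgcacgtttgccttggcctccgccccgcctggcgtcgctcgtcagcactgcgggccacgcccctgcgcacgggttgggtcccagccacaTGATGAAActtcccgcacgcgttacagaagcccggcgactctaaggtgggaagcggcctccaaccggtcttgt

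Of 27 tested genes of ATF4 and the integrated stress response 2 were higher and 3 lower (1 lower under median scaling). Chac1, which degrades glutathione, had signals of 132, 162 and 256 with unused media (chip 1) and 36.3 (chip 1), 68.3 and 57.2 (chip 2) with cardiomyocyte media. Chac1 fell (log2 fold change -1.49, SE 0.25, adjusted p = 0.0035, chip-blocked -1.73). Nupr1, a small stress-induced chromatin protein, had signals of 776, 937 and 873 (chip 1) with unused media against 2260.4 (chip 1), 2571 and 2328 (chip 2) with cardiomyocyte media. Nupr1 rose (log2 fold change 1.45, SE 0.16, adjusted p = 2.07e-04, chip-blocked 1.41). Vldlr, a lipoprotein receptor, had signals of 317, 351 and 365 in unused media (chip 1) and 1003 (chip 1), 892 and 923 (chip 2) in cardiomyocyte media. Vldlr rose (log2 fold change 1.41, SE 0.16, adjusted p = 2.65e-04, chip-blocked 1.52), with 1.16 and 1.17 at its other 2 probes. The other calls were Cebpb (-0.84), a C/EBP factor, and Ppp1r15a (-0.69), which restarts translation and was chosen after its value was seen. Cebpb (adjusted p = 0.151) and Ppp1r15a (adjusted p = 0.0958) did not pass with chip as a block, nor did Cebpb (adjusted p up to 0.122) without unused media array 1, 2 or 3 or cardiomyocyte media array 2 or 3, nor did Ppp1r15a (adjusted p up to 0.133) without unused media array 1 or 2 or cardiomyocyte media array 2 or 3 or supernatant array 1 or 2. Cebpb was not called with median scaling, the values normalized by the authors or chip as a random block, and Ppp1r15a was not called with median scaling, the values normalized by the authors or a fit of the 6 compared arrays alone.

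In all 12 motifs were searched, and 7253 tested genes had a window, 261 of them called higher and 308 called lower. The antioxidant core stood in 17%, 20.3% and 24% of all, higher and lower genes, and the ATF4 sequence in 2.94%, 2.68% and 3.25%. The AP-1 site TGANTCA stood in 6.71%, 9.58% and 11.7%, and a match can overlap the antioxidant core, which begins with the same letters. The TEAD site GGAATG stood in 14.2%, 17.2% and 17.2% and the core GCGTG of the aryl hydrocarbon receptor and of hypoxia factors in 55.5%, 48.7% and 53.9%. The shares were 9.89%, 8.81% and 8.12% for the E2F site TTTNNCGC and 8.53%, 7.66% and 8.77% for the STAT site TTCNNNGAA. A kappaB site, the C/EBP palindrome TTGCGCAA, the sterol element TCACNCCAC, the SMAD palindrome GTCTAGAC and a serum response element core each stood in at most 1.24% of all windows. These shares were not tested, and a match is not a bound site.

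**Figure D3:**
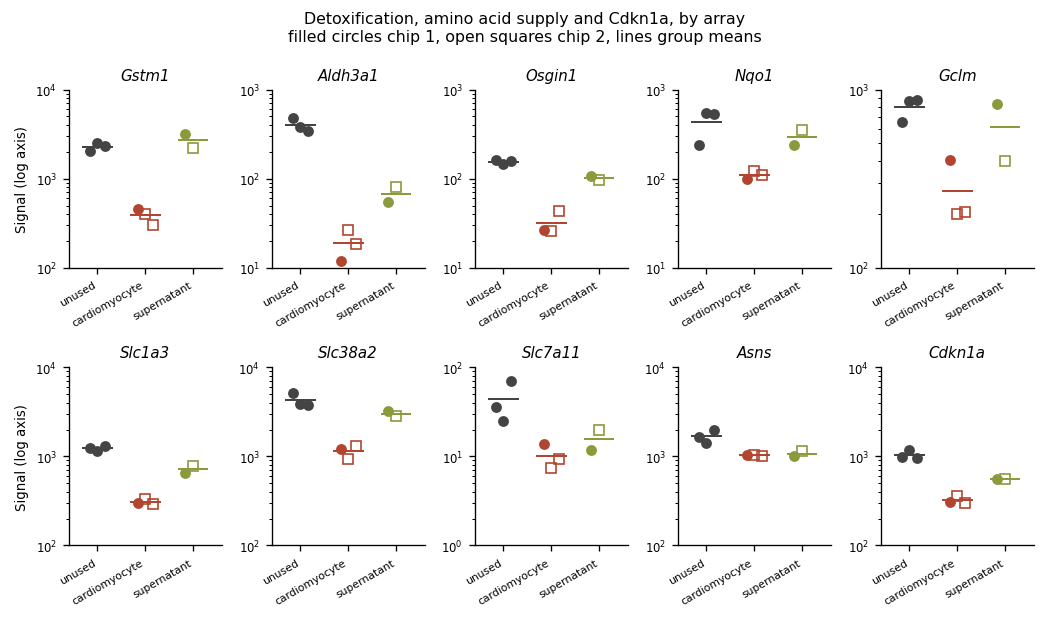
Signal (log axis, offset subtracted) of 10 genes on each of the 8 arrays, filled circles for chip 1 and open squares for chip 2, with a line at each group mean. All 3 arrays of cardiomyocyte media lie below all arrays of unused media in every panel, and for Gclm the chip 2 arrays lie lowest. Gstm1 is shown at its brightest probe, and its other probe had a log2 fold change of 0.28.

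Genes of the cell cycle and of growth arrest were called in both directions, mostly at a share near that over all genes. That share was 8.43%, against 9.09% of the mitosis list, 8.7% of the G1 list and 5.71% of the DNA replication list. Only the list of p53 targets lay well above it. Cdkn1a, which encodes the cyclin-dependent kinase inhibitor p21, had signals of 991, 1174 and 960.3 with unused media (chip 1) and 304 (chip 1), 356 and 301 (chip 2) with cardiomyocyte media. Cdkn1a fell (log2 fold change -1.65, SE 0.16, adjusted p = 1.04e-04, chip-blocked -1.68), and its other 2 probes were at -1.51 and -1.27. Gadd45b, a stress-induced growth arrest gene, had signals of 125, 116 and 125 (chip 1) with unused media against 20.9 (chip 1), 16.1 and 29.99 (chip 2) with cardiomyocyte media. Gadd45b fell (log2 fold change -1.86, SE 0.19, adjusted p = 1.34e-04, chip-blocked -1.76). Zmat3, a target of p53 in RNA processing, had signals of 1375, 1212 and 1337 in unused media (chip 1) and 659 (chip 1), 529.5 and 756 (chip 2) in cardiomyocyte media. Zmat3 fell (log2 fold change -1.01, SE 0.19, adjusted p = 0.00667, chip-blocked -0.88). Of 25 tested p53 targets 6 were lower and 0 higher (median -0.21), and 3 were lower with chip as a block. Under median scaling the median was -0.02, against 0.21 over all genes there. In the G1 list 2 of 23 were lower, the other being the cyclin Ccnd3 (-0.85), whose other probes were at -0.12 and 0.22. Mitosis had 2 higher of 22 tested and DNA replication 2 of 35, none of either list lower, and 0 and 0 with chip as a block. The 4 were Top2a, Bub1b (0.83), Tyms (0.94) and Uhrf1 (0.59). Outside the lists, Bub3, of the spindle checkpoint (-0.96), and Timeless, of the replication fork (-0.79), fell, both chosen after their values were seen. The largest of the 4, Top2a, which untangles DNA, had signals of 815, 939 and 581 with unused media (chip 1) and 1355 (chip 1), 1539 and 1710.5 (chip 2) with cardiomyocyte media. Top2a rose (log2 fold change 0.99, SE 0.22, adjusted p = 0.0187, chip-blocked 0.74). Bub1b (adjusted p = 0.108), Tyms (adjusted p = 0.125), Uhrf1 (adjusted p = 0.0679), Bub3 (adjusted p = 0.1), Timeless (adjusted p = 0.0504) and Top2a (adjusted p = 0.104) did not pass with chip as a block, nor did Bub1b (adjusted p up to 0.0933) without unused media array 1, 2 or 3 or cardiomyocyte media array 2 or 3, nor did Tyms (adjusted p up to 0.107) without unused media array 1 or 2 or cardiomyocyte media array 2 or 3, nor did Uhrf1 (adjusted p up to 0.14) without unused media array 1, 2 or 3 or cardiomyocyte media array 1, 2 or 3 or supernatant array 1 or 2, nor did Bub3 (adjusted p up to 0.0926) without unused media array 2 or 3 or cardiomyocyte media array 2 or 3, nor did Timeless (adjusted p up to 0.0823) and Top2a (adjusted p up to 0.0754) without unused media array 1 or 3 or cardiomyocyte media array 2 or 3. Zmat3 and Timeless were not called with median scaling, Ccnd3 was not called with median scaling or averaged probes, Bub1b, Tyms and Top2a were not called with the values normalized by the authors, Uhrf1 was not called with median scaling, each probe tested or a fit of the 6 compared arrays alone, and Bub3 was not called with median scaling or the values normalized by the authors.

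Targets of YAP and TEAD, which respond to stretch and cell density, held 6 lower and 2 higher genes of 16 tested (median -0.19). Under median scaling 3 were lower and 2 higher (median -0.02, against 0.21 over all genes there), and with chip as a block 4 and 2. Without unused media replicate 1 the median was 0.00. Besides Gadd45b and Ccn2, Nuak2, a kinase that YAP induces, had signals of 395, 356 and 502 with unused media (chip 1) and 144 (chip 1), 136 and 145 (chip 2) with cardiomyocyte media. Nuak2 fell (log2 fold change -1.44, SE 0.17, adjusted p = 3.83e-04, chip-blocked -1.41). The higher genes were Tgfb2 and Fjx1, a secreted regulator of cadherin signalling, which was detected on no array of unused media (at least 3.11-fold higher, adjusted p = 1.39e-04). Immediate early transcription factors split, with 3 higher and 1 lower of 17. Junb had signals of 151, 152 and 124 (chip 1) with unused media against 428 (chip 1), 357 and 513 (chip 2) with cardiomyocyte media. Junb rose (log2 fold change 1.496, SE 0.19, adjusted p = 5.70e-04, chip-blocked 1.59). Fosl1, another AP-1 subunit, had signals of 146, 135 and 183 in unused media (chip 1) and 44.4 (chip 1), 23.3 and 24.3 (chip 2) in cardiomyocyte media. Fosl1 fell (log2 fold change -1.89, SE 0.24, adjusted p = 6.52e-04, chip-blocked -1.44). Egr2 rose from 496, 358 and 351 to 752 (chip 1), 1086 and 861 (chip 2) (log2 fold change 1.13, SE 0.20, adjusted p = 0.00497, chip-blocked 0.96). Dusp4, a phosphatase that ends ERK signalling, rose from 22.3, 23.4 and 39.1 to 66.8 (chip 1), 86.9 and 93.1 (chip 2) (log2 fold change 1.16, SE 0.20, adjusted p = 0.00379, chip-blocked 1.06). Dlx1, a homeobox factor, fell from 381, 423 and 638 to 179 (chip 1), 144 and 138 (chip 2) (log2 fold change -1.52, SE 0.21, adjusted p = 0.00125, chip-blocked -1.31). Of 28 tested homeobox and mesenchymal factors 5 were lower, Dlx1 among them, and 1 was higher, Egr2. Under median scaling 1 was lower and 1 higher.

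The called genes of fatty acid synthesis were mainly higher. Fatty acid synthesis and desaturation had 21 tested genes, of which 5 were higher (3 with chip as a block) and 1 lower. That was 28.6% called, against 8.43% over all genes. Of 18 genes of cholesterol synthesis and uptake 2 were higher (11.1%, near the share over all genes), with 0 when chip was a block. Acsl3, which activates fatty acids, had signals of 405, 387 and 439.6 with unused media (chip 1) and 939.9 (chip 1), 762 and 892 (chip 2) with cardiomyocyte media. Acsl3 rose (log2 fold change 1.04, SE 0.16, adjusted p = 0.0026, chip-blocked 1.06), with 0.41 at its other probe. Scd2, a desaturase, had signals of 321, 353 and 266 (chip 1) with unused media against 661 (chip 1), 769 and 729 (chip 2) with cardiomyocyte media. Scd2 rose (log2 fold change 1.17, SE 0.19, adjusted p = 0.00331, chip-blocked 0.95). Ptgis, which makes prostacyclin, rose from 817, 808 and 752 to 1863 (chip 1), 1560.3 and 1864 (chip 2) (log2 fold change 1.13, SE 0.17, adjusted p = 0.00151, chip-blocked 1.26). Alox5ap, which presents arachidonic acid for leukotriene synthesis, was detected on no array of unused media (at least 2.38-fold higher, adjusted p = 0.00151). Slco2a1, which takes up prostaglandins, fell from 383, 365 and 437 to 182 (chip 1), 129 and 175 (chip 2) (log2 fold change -1.22, SE 0.18, adjusted p = 0.00152, chip-blocked -1.14). Stra6, the receptor that imports retinol, rose from 11.5, 34.3 and 8.31 to 91.2 (chip 1), 71.6 and 129 (chip 2) (log2 fold change 1.78, SE 0.28, adjusted p = 0.00265, chip-blocked 1.84). Rarres2, the adipokine chemerin, rose from 61.6, 60.3 and 66.4 to 141 (chip 1), 178 and 134 (chip 2) (log2 fold change 1.08, SE 0.17, adjusted p = 0.00281, chip-blocked 0.95). Dlk1, which holds back fat cell differentiation, was among the brightest genes and fell from 21855, 22442 and 20680.0 to 10093 (chip 1), 8119 and 11249.9 (chip 2) (log2 fold change -1.15, SE 0.17, adjusted p = 0.00199, chip-blocked -1.07). The list of adipogenic factors and markers, which holds Dlk1, had 1 higher and 3 lower genes of 11 tested (median -0.12). The other lower genes were Plin4 (-0.86) and Cebpb (-0.84), and Plin2 (0.61) was higher. With chip as a block only Dlk1 of them passed, and under median scaling 1 was higher and 0 lower. Stra6 was not called with the values normalized by the authors, and Dlk1 was not called with median scaling.

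Among the largest rises outside these groups, Prg2 encodes the major basic protein of eosinophil granules, and its signal was 18.3, 28.2 and 37.8 with unused media (chip 1) and 598 (chip 1), 587 and 679.9 (chip 2) with cardiomyocyte media. Prg2 rose (log2 fold change 3.88, SE 0.20, adjusted p = 2.37e-06, chip-blocked 3.77). Nnmt methylates nicotinamide and had signals of 6.89, 9.82 and 6.85 (chip 1) with unused media against 218 (chip 1), 297 and 292 (chip 2) with cardiomyocyte media (at least 7.87-fold higher, adjusted p = 2.37e-06), while its other probe was at 1.92. Plac1, a gene known from placenta, had signals of 14.1, 45.2 and 26.7 in unused media (chip 1) and 491 (chip 1), 366 and 388 (chip 2) in cardiomyocyte media. Plac1 rose (log2 fold change 3.32, SE 0.24, adjusted p = 1.45e-05, chip-blocked 3.51). Plac8 had signals of 23.1, 29.3 and 29.7 with unused media (chip 1) and 328 (chip 1), 451 and 276 (chip 2) with cardiomyocyte media. Plac8 rose (log2 fold change 3.06, SE 0.21, adjusted p = 7.38e-06, chip-blocked 3.13). Aqp1, a water channel, was the brightest of the 15 largest rises, at 704, 376 and 464 (chip 1) with unused media against 2880.1 (chip 1), 4682 and 4021 (chip 2) with cardiomyocyte media. Aqp1 rose (log2 fold change 2.89, SE 0.26, adjusted p = 4.60e-05, chip-blocked 2.56), with 3.04 and 2.89 at its other 2 probes. Rnase4, a secreted ribonuclease, had signals of 304, 272 and 293 in unused media (chip 1) and 2354 (chip 1), 2420.4 and 1302 (chip 2) in cardiomyocyte media. Rnase4 rose (log2 fold change 2.69, SE 0.23, adjusted p = 3.79e-05, chip-blocked 2.79). Gngt2, a G protein gamma subunit, was at least 5.37-fold higher, adjusted p = 7.38e-06, with 0.74 at its other probe. Fap, the fibroblast activation protease, rose from 11.7, 23 and 8.72 to 92.2 (chip 1), 174 and 95.8 (chip 2) (log2 fold change 2.14, SE 0.28, adjusted p = 6.76e-04, chip-blocked 1.77). Oasl2, an interferon-induced gene, rose from 29.4, 19.8 and 18.5 to 112 (chip 1), 90.2 and 104 (chip 2) (log2 fold change 1.62, SE 0.17, adjusted p = 1.72e-04, chip-blocked 1.70). Fap and Oasl2 were named through their lists and were not among the 15 largest rises. Of 26 tested genes of interferon response and antigen presentation 3 were higher and 1 lower, Usp18 (-0.79). That was 15.4% called, against 8.43% over all genes, with a median of 0.03. With chip as a block 2 were higher and 0 lower.

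Among the largest falls, Chil1, a chitinase-like secreted protein, had signals of 517, 291 and 230.1 with unused media (chip 1) and 11.8 (chip 1), 5.80 and 8.07 (chip 2) with cardiomyocyte media and was at least 10.1-fold lower, adjusted p = 7.38e-06. Tmem100, a membrane protein of endothelium and lung, had signals of 157, 229 and 336 (chip 1) with unused media against 19.1 (chip 1), 10.7 and 9.75 (chip 2) with cardiomyocyte media and was at least 7.25-fold lower, adjusted p = 2.59e-05. The transcript 5031410I06Rik was at least 9.05-fold lower, adjusted p = 7.38e-06. The adhesion protein Cdsn was at least 3.83-fold lower, adjusted p = 3.66e-05. Trim30d was at least 5.83-fold lower, adjusted p = 7.38e-06, a value that is uncertain because its gene family holds near-identical members. All 3 were without detection on the 3 arrays of cardiomyocyte media. Prokr1, a receptor of prokineticins, had signals of 370.3, 326 and 359.6 in unused media (chip 1) and 17.8 (chip 1), 55.2 and 38.2 (chip 2) in cardiomyocyte media. Prokr1 fell (log2 fold change -2.86, SE 0.26, adjusted p = 5.86e-05, chip-blocked -3.35), with -1.45 at its other probe. Dnmt3l, a cofactor of DNA methylation in germ cells, had signals of 276, 271 and 307 with unused media (chip 1) and 16.9 (chip 1), 38.8 and 32.4 (chip 2) with cardiomyocyte media. Dnmt3l fell (log2 fold change -2.76, SE 0.22, adjusted p = 2.43e-05, chip-blocked -3.16), with -2.63 at its other probe. In both, the chip 1 array of cardiomyocyte media was the lowest of the 6. Angptl7, an angiopoietin-like protein, had signals of 638, 531 and 555 (chip 1) with unused media against 74.3 (chip 1), 80.5 and 91.3 (chip 2) with cardiomyocyte media. Angptl7 fell (log2 fold change -2.59, SE 0.17, adjusted p = 7.38e-06, chip-blocked -2.55). Rasl11a, a small GTPase, fell from 254, 150.0 and 139 to 10.9 (chip 1), 12.2 and 17 (chip 2) (log2 fold change -2.71, SE 0.25, adjusted p = 6.64e-05, chip-blocked -2.98). Sytl2, which tethers secretory vesicles, fell from 231, 160.5 and 144 to 18.7 (chip 1), 18.9 and 33.3 (chip 2) (log2 fold change -2.29, SE 0.21, adjusted p = 6.38e-05, chip-blocked -2.40).

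**Figure D4:**
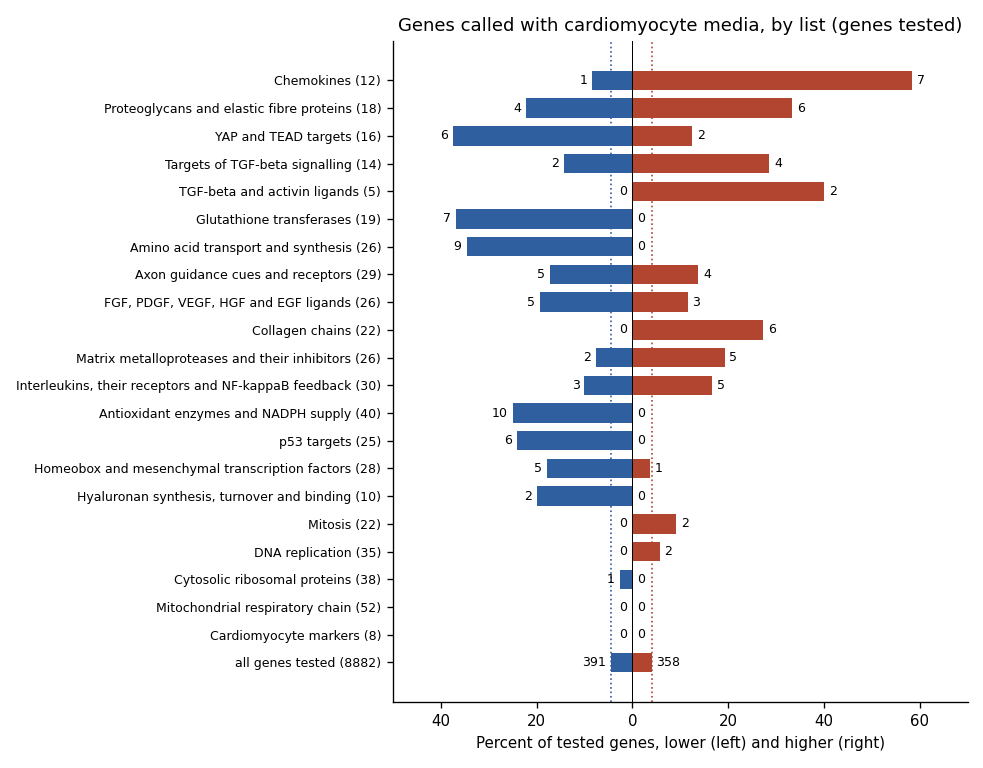
Percent of the tested genes of each list that were called lower (left, blue) and higher (right, red), with the number called at the end of each bar, the number tested in brackets and dotted lines at the share over all genes (4.4% lower and 4.03% higher). Chemokines reach the right-hand side furthest, and the respiratory chain has no called gene.

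Large sets of housekeeping genes held few calls. None of 52 tested genes of the mitochondrial respiratory chain passed in limma (3 had an unadjusted p under 0.05), nor did any with chip as a block, and the median was 0.14. Of 38 ribosomal proteins tested in the list 1 passed, Rpl22 (-0.94), and of 29 proteasome subunits 1, Psmc2 (-0.74). Rps15a, a ribosomal protein outside the list, fell too (-1.32, chosen after its value was seen). Its 1 tested probe went from 218, 185 and 267 to 74.6 (chip 1), 73.2 and 90.4 (chip 2). It was much dimmer than Rpl22, whose mean with unused media was 4086. Fibroblast markers had a summed signal of 44682 to 56169 with unused media and 59446 to 73477 with cardiomyocyte media over 14 genes, of which Lum, Fap and Col3a1 were called. Of 23 markers of cardiomyocytes 8 were tested and none passed in limma (1 at an unadjusted p under 0.05). A further 13, among them Actn2, Myl2, Pln and Ryr2, were detected on fewer than 2 of the 8 arrays. The 8 tested were among Nppa, Myh6, Myh7, Tnnt2, Tnnc1, Myl4, Myl7, Nkx2-5, Gja5 and Hcn4. The 8 tested markers summed to 325 to 514 with unused media and 319 to 384 with cardiomyocyte media, so the ranges overlapped. Tested markers of macrophages (5), endothelium (3) and epithelium (4) summed to at most 224 a list on any of the 6 arrays, and none of them passed. Psmc2 (adjusted p = 0.121) did not pass with chip as a block, nor did Psmc2 (adjusted p up to 0.101) without unused media array 1, 2 or 3 or cardiomyocyte media array 2 or 3. Rpl22 was not called with median scaling, and Psmc2 was not called with median scaling or the values normalized by the authors.

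Some called genes moved with the chip. In the model with chip as a block 374 genes differed between chips, and 415 of the 749 calls passed with it. Of the genes that did not, Zmat1, a zinc finger gene, had the largest fall, with signals of 193, 210.5 and 398 with unused media (chip 1) and 158 (chip 1), 45.2 and 32.2 (chip 2) with cardiomyocyte media. Zmat1 fell (log2 fold change -1.75, SE 0.46, adjusted p = 0.041, chip-blocked -0.78). Rgs4, which ends G protein signals, had signals of 865, 924 and 850.2 (chip 1) with unused media against 585 (chip 1), 263 and 252 (chip 2) with cardiomyocyte media. Rgs4 fell (log2 fold change -1.33, SE 0.32, adjusted p = 0.025, chip-blocked -0.64). Pinx1, an inhibitor of telomerase, had signals of 156, 219 and 230.3 in unused media (chip 1) and 123 (chip 1), 64.4 and 56.7 (chip 2) in cardiomyocyte media. Pinx1 fell (log2 fold change -1.21, SE 0.30, adjusted p = 0.0303, chip-blocked -0.62). In all 3 the chip 1 array of cardiomyocyte media lay closer to unused media than the chip 2 arrays. Msto1, a mitochondrial gene, had the largest rise of the kind, with signals of 46.1, 101 and 33.2 with unused media (chip 1) and 114 (chip 1), 204 and 223 (chip 2) with cardiomyocyte media. Msto1 rose (log2 fold change 1.42, SE 0.32, adjusted p = 0.0203, chip-blocked 1.02). Pfn1, the actin-binding profilin, had signals of 658, 1507 and 1164 (chip 1) with unused media against 2023 (chip 1), 2912 and 3699 (chip 2) with cardiomyocyte media. Pfn1 rose (log2 fold change 1.40, SE 0.31, adjusted p = 0.0177, chip-blocked 1.01). Efna1, an ephrin chosen after its values were seen, went the other way, its chip 1 array being the lowest, with signals of 106, 89.97 and 75.6 in unused media (chip 1) and 8.12 (chip 1), 40.4 and 40.6 (chip 2) in cardiomyocyte media. Efna1 fell (log2 fold change -1.31, SE 0.33, adjusted p = 0.0326, chip-blocked -2.01). Zmat1 (adjusted p = 0.196), Rgs4 (adjusted p = 0.0652), Pinx1 (adjusted p = 0.137), Msto1 (adjusted p = 0.124) and Pfn1 (adjusted p = 0.109) did not pass with chip as a block, nor did Zmat1 (adjusted p up to 0.155) and Rgs4 (adjusted p up to 0.115) without unused media array 1, 2 or 3 or cardiomyocyte media array 2 or 3, nor did Pinx1 (adjusted p up to 0.123) without unused media array 2 or 3 or cardiomyocyte media array 2 or 3, nor did Msto1 (adjusted p up to 0.0887) and Pfn1 (adjusted p up to 0.0766) without unused media array 1 or 3 or cardiomyocyte media array 2 or 3, nor did Efna1 (adjusted p up to 0.112) without unused media array 1, 2 or 3. Zmat1 was not called with the values normalized by the authors, no detection filter, each probe tested, chip as a random block or trend and robust settings, Rgs4, Msto1 and Pfn1 were not called with the values normalized by the authors or no detection filter, Pinx1 was not called with the values normalized by the authors, no detection filter or chip as a random block, and Efna1 was not called with median scaling, the values normalized by the authors or no detection filter.

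**Figure D5:**
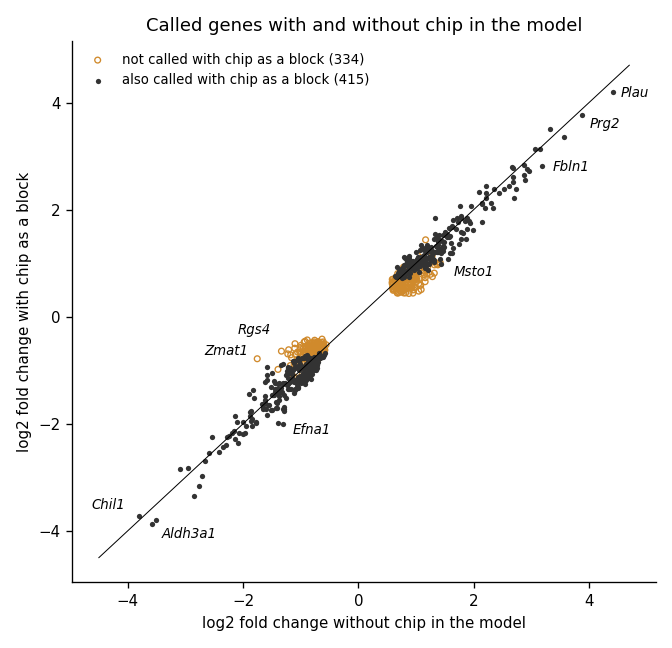
Log2 fold change of each of the 749 called genes without chip in the model (horizontal) and with chip as a block (vertical). The 415 dark points passed both ways and the open orange points, which did not, lie between -1.75 (Zmat1) and 1.42 (Msto1) on the horizontal axis.

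The supernatant arrays give the signals of these genes with cardiomyocyte media after ultracentrifugation. Cardiomyocyte media and supernatant were compared in the same model, where 278 genes were higher and 156 lower with cardiomyocyte media (4.89% called). Of the genes called against unused media, 120 of 358 higher and 129 of 391 lower genes also differed from the supernatant in that direction, and both comparisons share the arrays of cardiomyocyte media. Tgfb2 had signals of 493 (chip 1) and 373 (chip 2) with the supernatant and did not pass against it (log2 difference 0.29, adjusted p = 0.588). Inhba had 40.5 and 38 and passed (2.12, adjusted p = 1.26e-04). Ccl11 had 48.9 and 68.5, at the level of unused media (3.17, adjusted p = 4.01e-05), and Igfbp5 11 and 11.5 (higher, adjusted p = 5.00e-05). Prelp had 135 and 161, below unused media (3.69, adjusted p = 1.05e-05). Ccl8 had 329.9 and 449, and its difference did not pass (0.86, adjusted p = 0.326). Of the falls, Gstm1 had 3189 and 2194 at its brightest probe (-2.74, adjusted p = 8.00e-05), while its other probe was at 0.28 against unused media. Wnt5a had 1198 and 701 (-1.92, adjusted p = 0.0028). Cdkn1a lay between the groups at 561 and 551 (-0.77, adjusted p = 0.0356).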

How the data were processed

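RNA of NIH 3T3 fibroblasts was labelled and hybridized to Illumina MouseRef-8 BeadChips, and the authors took bead means per probe with BeadStudio (3.3 in the submitters' processing notes). The deposited table held, per array, the mean bead intensity without background subtraction, the number of beads and their standard error, and the detection p-value, the share of negative controls at least as bright. A second deposited table held intensity values that the authors had background subtracted and normalized by cubic spline, and it served as an alternative. Groups were taken from the sample titles and chips from the first number of each column name.

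Intensities were background corrected with limma 3.58.1 in R 4.3.3 by a normal-exponential model (nec) with negative controls inferred from detection p-values with 16 added as an offset. They were then quantile normalized and converted to log2. Printed signals have the offset subtracted again, so differences between printed signals can exceed the fold change. Probes were named from the platform annotation, in which 23978 of 25697 probes had 1 gene, 1719 had none and 0 had several, and 15 names were updated. Probes detected at p under 0.05 on at least 2 of 8 arrays were kept, and the brightest probe stood for each gene. A linear model with 1 coefficient per group over 8 arrays was moderated with eBayes, and p-values were adjusted by Benjamini-Hochberg over all genes tested at a threshold of 0.05. The procedure was tested on simulated data. A gene detected on no array of a group got a lower bound of its fold, set against the dimmest probe detected on each array, and no fitted fold.

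The rule for names took the 15 largest rises and falls that passed also with chip as a block, the 4 members of each gene list with the smallest p among those that passed, genes named by the study, and the 5 largest on each side that failed with chip as a block. The comparison, its members and the 59 gene lists were chosen with earlier results of these data known. Near-identical family members can share the signal of a probe. Promoter windows came from RefSeq (GRCm38.p6), and no genome sequence was used here. Replicate numbers did not pair the samples.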

Additional observations from a re-analysis of the deposited data

How the results depend on the processing

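Against 749 calls (358 higher, 391 lower), the alternatives planned gave the following. Scaling to a common median gave 480 calls with 369 higher and 111 lower, the values normalized by the authors 395 (201 and 194), chip as a block 496 (228 and 268), chip 1 only 169 (78 and 91) and array weights 1624 (795 and 829). Leaving out single arrays gave 375 to 1448 calls, 187 to 704 higher and 188 to 744 lower, the highest without cardiomyocyte media replicate 1 and the lowest without cardiomyocyte media replicate 2. The cause of these shifts was not tested. Chip 1 only and each omission rest on fewer arrays. Without cardiomyocyte media replicate 1, chip and media cannot be told apart in the compared arrays. The other settings stayed within 1.5 times of the calls: no background correction (925), offset 50 (933), cyclic loess (707), no detection filter (695), detection on all arrays (693), each probe tested (775), averaged probes (717), the 6 compared arrays alone (618), chip as a random block (588), trend and robust settings (926) and a fold of 1.5 with a signal of 50 (650). With replicate number as a block 729 genes passed (352 and 377), and deviations of arrays that share a number correlated at -0.18, -0.09 and -0.16, so the numbers were not used to pair samples.

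No named gene that passed changed its direction under any alternative, and 70 of 144 passed under each of the 25. Signs turned for uncalled genes: Igf1 (-0.12) was at 0.16 with median scaling, 0.073 in the chip block and 0.19 in chip 1 alone, Has2 (-0.23) at 0.042 with median scaling and 0.03 with array weights, and Igf2 (0.00) at -0.09 with array weights and, with single arrays left out, from -0.179 to 0.112, below 0 without unused media replicate 3, cardiomyocyte media replicate 1 or cardiomyocyte media replicate 2. Of 59 list medians 26 changed sign under at least 1 setting, and 2 moved when undetected genes were set at their bound, by at most 0.13. With 3 arrays a group and all unused arrays on chip 1, small differences cannot be separated from chip, and dim probes are limited by background.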
